A study of Mus musculus with 12 samples.

Results

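Cullin-RING ubiquitin ligases are built on a cullin scaffold, and most cullins reach their substrates through an adaptor protein. The cullin and adaptor genes were followed here through the RNA of growing mouse oocytes that lack TBPL2, the oocyte-specific paralogue of the TATA box-binding protein TBP. They were 10 of the 55450 genes in the count table, matched by gene symbol from a list drawn up with earlier results of these data known: the adaptors Eloc, Elob, Skp1a and Ddb1 and the cullins Cul1, Cul2, Cul3, Cul4a, Cul4b and Cul5. The 12 RNA libraries formed 4 groups of 3. Oocytes of Tbpl2-/- mice, whose genotype the labels give as Tbp2 null, and of wild-type (WT) mice were hand-picked by size at postnatal day 14 (P14, secondary follicles) and at P7 (primary follicles). Each library was made from a pool of 130 to 214 oocytes for P14 Tbpl2-/-, 144 to 260 for P14 WT, 251 to 340 for P7 Tbpl2-/- and 350 to 400 for P7 WT, and the labels call the pools replicates without telling which animals gave them.

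In a cullin-RING ligase the cullin holds a RING protein, which brings the ubiquitin-charged E2 enzyme, at one end and a substrate receptor at the other. SKP1 links CUL1 to F-box proteins, the elongin B and elongin C heterodimer links CUL2 and CUL5 to receptors with a BC box, DDB1 links CUL4A and CUL4B to DCAF receptors, and CUL3 binds BTB proteins directly. The ligases are switched on when NEDD8 is attached to the cullin and switched off when the COP9 signalosome removes it. In mouse oocytes the CUL4-DDB1 ligase with its receptor DCAF1 is known to be needed for the survival of the oocyte pool. The measurements below are of transcripts, so they say nothing of protein or of assembled ligases.

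Each library held 31467610 to 48030724 counted reads. The targeted gene, Tbpl2, held 75.3 to 83.3 normalised counts in P14 Tbpl2-/- libraries against 1900.5 to 2442 in P14 WT libraries, and 75.2 to 117 in P7 Tbpl2-/- against 3027 to 3317 in P7 WT libraries. The oocyte markers Zp2, Zp3 and Gdf9, which encode zona pellucida proteins and a secreted growth factor, were detected in all 12 libraries but moved with genotype. Gdf9 held 66457 to 76506 normalised counts in P14 Tbpl2-/- against 327201 to 397225 in P14 WT libraries, and 53269 to 57089 in P7 Tbpl2-/- against 301158 to 320676 in P7 WT libraries. The 11 oocyte markers summed to 391256 to 467192 in P14 Tbpl2-/- against 1277625 to 1469675 in P14 WT libraries, and to 446187 to 462809 in P7 Tbpl2-/- against 1427189.8 to 1630449 in P7 WT libraries. In edgeR's test 7 of these passed as lower and 2 as higher at P14, and at P7 these numbers were 6 and 3. Those higher at P14 were Sohlh1 (log2 fold change 4.20) and Figla (1.07), and Sohlh1 was also higher at P7 (2.84). At P7 Kit held 35532 to 43717 normalised counts in Tbpl2-/- against 17512 to 31325 in WT libraries. Ddx4 held 21879 to 26007 in P7 Tbpl2-/- against 12361 to 17295 in P7 WT libraries. The 15 granulosa cell markers summed to 2082 to 2479 normalised counts in P14 Tbpl2-/- and 2163 to 2498 in P14 WT libraries, and to 1082 to 1446 in P7 Tbpl2-/- and 2182 to 3015 in P7 WT libraries, so they overlapped between genotypes at P14 and stood apart at P7. Their defining genes Amh and Foxl2 were present at low counts in all 4 groups, and Krt19 was at 0 in every P14 library. The 5 blood and endothelium markers summed to 352 to 505 in P14 Tbpl2-/- against 1997 to 2767 in P14 WT libraries, and to 83.1 to 98.6 in P7 Tbpl2-/- against 596 to 1159 in P7 WT libraries. Nearly all of this was Pecam1, while Ptprc, Cdh5, Hba-a1 and Hbb-bs held at most 4.21 in any library. The 8 stroma and theca markers summed to 119 to 194 in P14 Tbpl2-/- and 126 to 152 in P14 WT libraries, which overlapped, and to 165 to 199 in P7 Tbpl2-/- and 78.7 to 133 in P7 WT libraries, which did not. The part of these markers in the results was not tested. In 1 check, run for the P7 WT group alone, P7 WT replicate 1 was the P7 WT library nearest to the P14 WT mean. This held for 72% of the 8889 genes that differed between the ages in WT, and for 8 of the 10 cullin and adaptor genes. Over all genes, on the log2 scale, replicate 1 correlated at 0.984 with P7 WT replicate 2 and 0.981 with replicate 3, which correlated at 0.982 with each other. Without P7 WT replicate 1 the P7 calls of the cullin and adaptor genes were those with it, except that Ddb1 passed, and the values that moved most are given below.

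All 10 genes passed the filter on low counts and were tested. At P14, 4 were lower and 3 higher in Tbpl2-/- than in WT oocytes at an adjusted p of at most 0.05 in edgeR's quasi-likelihood test, and 3 did not pass. Among all 17715 tested genes 27.8% were lower and 29.9% higher at P14, so the calls among the cullin and adaptor genes were not unusual in number. Their median log2 fold change was -0.12, beside 0.07 over all tested genes. At P7, 4 were lower and 4 higher, where 28.9% of all tested genes were lower and 30.5% higher, and the median was 0.15 beside 0.02 over all tested genes. With scaling by library size alone the median of all tested genes at P14 was 0.48, and 2962 genes were lower and 8262 higher, against 4932 and 5292 in the fit used here. At P7 that scaling gave a median of 0.29 with 3697 lower and 7203 higher, against 5111 and 5403. Because each library was scaled to make a typical gene alike, a loss or gain shared by most transcripts cannot be seen, and in pooled oocytes fewer cells of a type and less RNA per cell cannot be told apart.

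**Figure D1:**
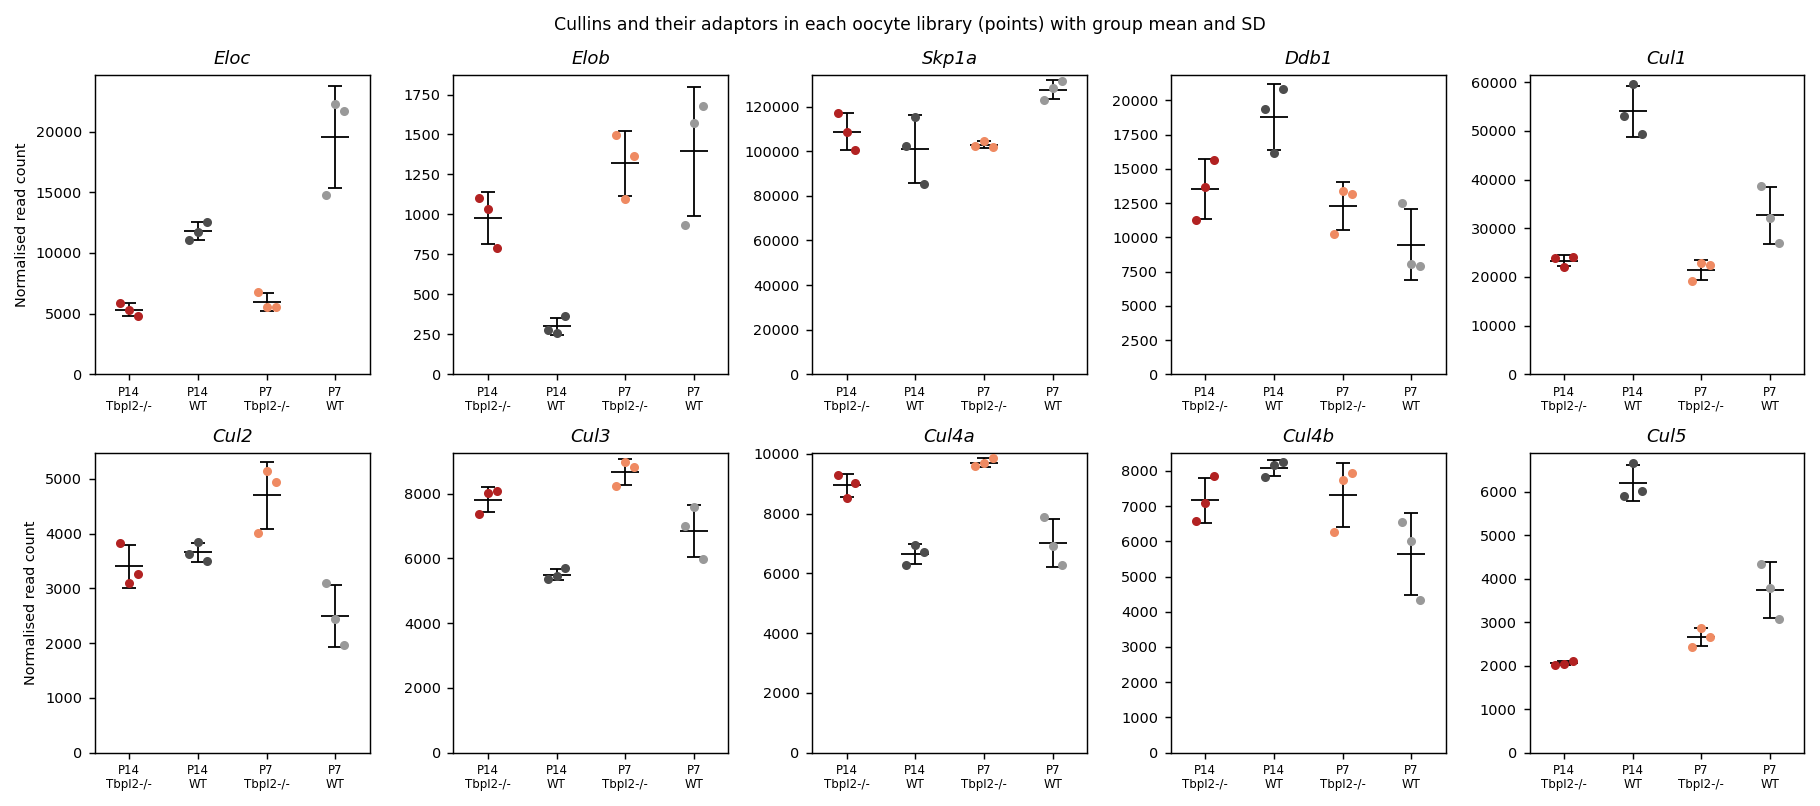
Normalised read counts (y axes, starting at 0) of the 10 cullin and adaptor genes in each of the 12 libraries (points), with the group mean and SD of 3 libraries (lines), for P14 Tbpl2-/-, P14 WT, P7 Tbpl2-/- and P7 WT oocytes. Eloc is low in both Tbpl2-/- groups, Elob is low only in the P14 WT libraries (257 to 362), and Cul1 and Cul5 stand highest in the P14 WT libraries.

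The subunits of the elongin BC adaptor went opposite ways at P14. Elob, which encodes the ubiquitin-like elongin B subunit, held 1103, 1033 and 792 normalised counts in P14 Tbpl2-/- oocytes, against 278, 257 and 362 in P14 WT oocytes. Every Tbpl2-/- library thus lay above every WT library, by 3.30-fold in the fit (log2 fold change 1.72, SE 0.22, adjusted p = 7.48e-06). At P7 the groups overlapped, with 1496, 1099 and 1365 in Tbpl2-/- and 933, 1572 and 1678 in WT oocytes (log2 fold change -0.06, SE 0.21, adjusted p = 0.82). The lowest P7 WT value belonged to replicate 1, without which the log2 fold change was -0.28 (adjusted p = 0.203). The P14 genotype difference exceeded the P7 one by 1.78 on the log2 scale (interaction, SE 0.30, adjusted p = 0.0012).

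Eloc, which encodes elongin C, the subunit that contacts the cullin and the BC box, was lower in Tbpl2-/- oocytes at both ages. It held 5846, 5299.5 and 4813 normalised counts in P14 Tbpl2-/- oocytes, against 11091, 11758 and 12578 in P14 WT oocytes (log2 fold change -1.13, SE 0.15, adjusted p = 8.26e-06). At P7 it held 6778, 5536 and 5540.4 in Tbpl2-/- and 14743, 22243 and 21725 in WT oocytes (log2 fold change -1.70, SE 0.15, adjusted p = 1.19e-07). The genotypes did not overlap at either age, and both Tbpl2-/- groups lay close together, at 5319.6 ± 517 at P14 and 5951 ± 716 at P7 (mean ± SD, n = 3 each). The deficit was smaller at P14 by 0.57 on the log2 scale (SE 0.20, adjusted p = 0.0494), a difference at the edge of the threshold: it no longer passed when any 1 of 9 libraries was left out (all but P7 Tbpl2-/- replicate 1, P14 Tbpl2-/- replicate 3 and P7 WT replicate 1), where the log2 difference was 0.46 to 0.62 and the adjusted p 0.0571 to 0.130. The log2 fold change of Eloc was -1.86 at P7 without P7 WT replicate 1, and -0.72 at P14 with scaling by library size alone, and passed in both.

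CUL2 and CUL5 are the scaffolds that the elongins serve. Cul5 was the most reduced cullin at P14, with 2026, 2039 and 2106 normalised counts in Tbpl2-/- oocytes against 5897, 6667 and 6025 in WT oocytes (log2 fold change -1.57, SE 0.13, adjusted p = 5.28e-08). At P7 it was lower by less, with 2440.3, 2868 and 2670.3 in Tbpl2-/- and 4350.0, 3786 and 3066 in WT oocytes (log2 fold change -0.47, SE 0.12, adjusted p = 0.00391). The groups were apart at both ages, and the P14 difference was larger by -1.10 on the log2 scale (SE 0.17, adjusted p = 0.000817). Without P7 WT replicate 1, the P7 log2 fold change was -0.34 (adjusted p = 0.0205). Scaled by library size alone, it was -0.19 and did not pass (adjusted p = 0.149).

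Cul2 behaved differently from Cul5 at P7, where it was higher in the mutant. It held 4007, 5143 and 4951 normalised counts in P7 Tbpl2-/- and 3099, 2432 and 1958 in P7 WT oocytes (log2 fold change 0.93, SE 0.15, adjusted p = 7.76e-05). At P14 the ranges overlapped, with 3838, 3106 and 3259.8 in Tbpl2-/- and 3627, 3845 and 3500.1 in WT oocytes (log2 fold change -0.08, SE 0.15, adjusted p = 0.655). The interaction passed (log2 difference -1.02, SE 0.21, adjusted p = 0.00397). When libraries were scaled by size alone, the sign at P14 turned, to 0.33 (adjusted p = 0.047). Without P7 WT replicate 1 the P7 log2 fold change was 1.12 (adjusted p = 9.16e-06).

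Cul1, the scaffold of the SCF ligases, was lower at both ages, and its adaptor Skp1a moved little. Cul1 held 23912, 21961 and 24115 normalised counts in P14 Tbpl2-/- oocytes, against 53012, 59547 and 49387 in P14 WT oocytes (log2 fold change -1.19, SE 0.13, adjusted p = 1.41e-06). At P7 it held 19069, 22769.9 and 22373 in Tbpl2-/- and 38650.5, 32146 and 27057 in WT oocytes (log2 fold change -0.59, SE 0.13, adjusted p = 0.001). The genotypes were apart at both ages, and the deficit was larger at P14 (interaction -0.60, SE 0.18, adjusted p = 0.0234). This interaction did not pass when any 1 of 6 libraries was left out (replicate 2 of any of the 4 groups, or replicate 3 of either P7 group), where it was -0.49 to -0.59 and the adjusted p 0.0506 to 0.0846. The P7 log2 fold change of Cul1 was -0.45 without P7 WT replicate 1, and with scaling by library size alone the values were -0.77 at P14 and -0.31 at P7, each of which passed.

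Skp1a, the symbol under which the table lists mouse Skp1, was the most abundant of the 10 genes. It held 117349, 108433 and 100773 normalised counts in P14 Tbpl2-/- oocytes, against 102463, 115448 and 85117 in P14 WT oocytes, and these ranges overlapped (log2 fold change 0.13, SE 0.11, adjusted p = 0.336). At P7 it was slightly lower, with 102228, 104698 and 102088 in Tbpl2-/- and 122989, 128436 and 131638 in WT oocytes (log2 fold change -0.29, SE 0.11, adjusted p = 0.0332). That call was lost when P14 WT replicate 1, any P7 Tbpl2-/- replicate, or P7 WT replicate 2 or 3 was left out (log2 -0.27 to -0.31, adjusted p 0.0530 to 0.0872), without the filter on low counts (-0.28, adjusted p = 0.0545), and with scaling by library size alone (-0.01, adjusted p = 0.908). Scaling by size alone also made the P14 difference pass (0.55, adjusted p = 0.000173). The interaction of Skp1a narrowly missed the threshold (log2 difference 0.42, SE 0.16, adjusted p = 0.0564), and it passed without P14 Tbpl2-/- replicate 3, P14 WT replicate 2 or P7 WT replicate 1 (0.44 to 0.52, adjusted p 0.0281 to 0.0451), without the filter on low counts (0.45, adjusted p = 0.0418) and with scaling by library size alone (0.56, adjusted p = 0.0086).

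Cul3, whose product binds BTB-domain receptors without an adaptor, was modestly higher in the mutant at both ages. It held 7373, 8019.7 and 8074 normalised counts in P14 Tbpl2-/- oocytes, against 5356, 5457 and 5701 in P14 WT oocytes (log2 fold change 0.53, SE 0.11, adjusted p = 0.00049). At P7 it held 8229.9, 8980.1 and 8835 in Tbpl2-/- and 7006, 7582 and 5999 in WT oocytes (log2 fold change 0.36, SE 0.11, adjusted p = 0.00829). The groups did not overlap at either age, and the interaction did not pass (log2 difference 0.17, SE 0.15, adjusted p = 0.416). Scaling by library size alone gave 0.94 at P14 and 0.64 at P7.

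The paralogues Cul4a and Cul4b encode the scaffolds served by DDB1, and Cul4a was the steadier of them. Cul4a held 9281, 8524 and 9038 normalised counts in P14 Tbpl2-/- oocytes, against 6276, 6955 and 6724 in P14 WT oocytes (log2 fold change 0.45, SE 0.10, adjusted p = 0.00139). At P7 it held 9579, 9692 and 9852 in Tbpl2-/- and 7870.1, 6918 and 6282 in WT oocytes (log2 fold change 0.49, SE 0.10, adjusted p = 0.000706). It was higher in each Tbpl2-/- library than in each WT library of the same age, by a log2 amount whose interaction was -0.04 (SE 0.14, adjusted p = 0.878). Scaling by library size alone gave 0.86 at P14 and 0.77 at P7 for Cul4a.

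The X-linked Cul4b held 6564, 7083 and 7849 normalised counts in P14 Tbpl2-/- oocytes, against 7825, 8173 and 8258 in P14 WT oocytes (log2 fold change -0.15, SE 0.14, adjusted p = 0.379). At P7 it held 6259, 7736 and 7936 in Tbpl2-/- and 6561, 6009 and 4329 in WT oocytes (log2 fold change 0.39, SE 0.14, adjusted p = 0.0268). It passed only at P7, where the ranges overlapped, and that call was lost without P7 Tbpl2-/- replicate 2 or 3 or P7 WT replicate 3 (log2 0.24 to 0.35, adjusted p 0.0869 to 0.127) and when only the 6 P7 libraries were fitted (0.37, adjusted p = 0.0603). The P14 sign turned to 0.26 (adjusted p = 0.1004) with scaling by library size alone, and the interaction narrowly missed the threshold (log2 difference -0.55, SE 0.20, adjusted p = 0.055), passing without P7 WT replicate 1 (-0.68, adjusted p = 0.0144) or P7 Tbpl2-/- replicate 1 (-0.61, adjusted p = 0.0370) or without the filter on low counts (-0.52, adjusted p = 0.0346). Its P7 log2 fold change was 0.68 with that scaling and 0.52 without P7 WT replicate 1.

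Ddb1, the adaptor of the CUL4 ligases, held 11287, 13658 and 15652 normalised counts in P14 Tbpl2-/- oocytes, against 19367, 16147 and 20826 in P14 WT oocytes (log2 fold change -0.45, SE 0.18, adjusted p = 0.0453). The groups were apart, but narrowly, and the call was lost when P14 Tbpl2-/- replicate 1 or 2, P14 WT replicate 1 or 3, or P7 Tbpl2-/- replicate 2 or 3 was left out (log2 -0.31 to -0.44, adjusted p 0.0590 to 0.176). With scaling by library size alone it was -0.04 (adjusted p = 0.854). At P7 it held 10257, 13404 and 13140.2 in Tbpl2-/- and 12490.4, 8026 and 7893 in WT oocytes (log2 fold change 0.39, SE 0.18, adjusted p = 0.0773). The high value in WT was that of replicate 1, and without that library Ddb1 was higher in P7 Tbpl2-/- oocytes (log2 fold change 0.65, adjusted p = 0.00289). It also passed without P7 Tbpl2-/- replicate 1 (0.50, adjusted p = 0.0350), without the filter on low counts (0.41, adjusted p = 0.00481) and with scaling by library size alone (0.68, adjusted p = 0.00411). The interaction of -0.84 (SE 0.26, adjusted p = 0.0252) was lost when 1 of 7 libraries was left out (P14 Tbpl2-/- replicate 2, P14 WT replicate 1 or 3, or replicate 2 or 3 of either P7 group), where it was -0.73 to -0.83 and the adjusted p 0.0512 to 0.0673.

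**Figure D2:**
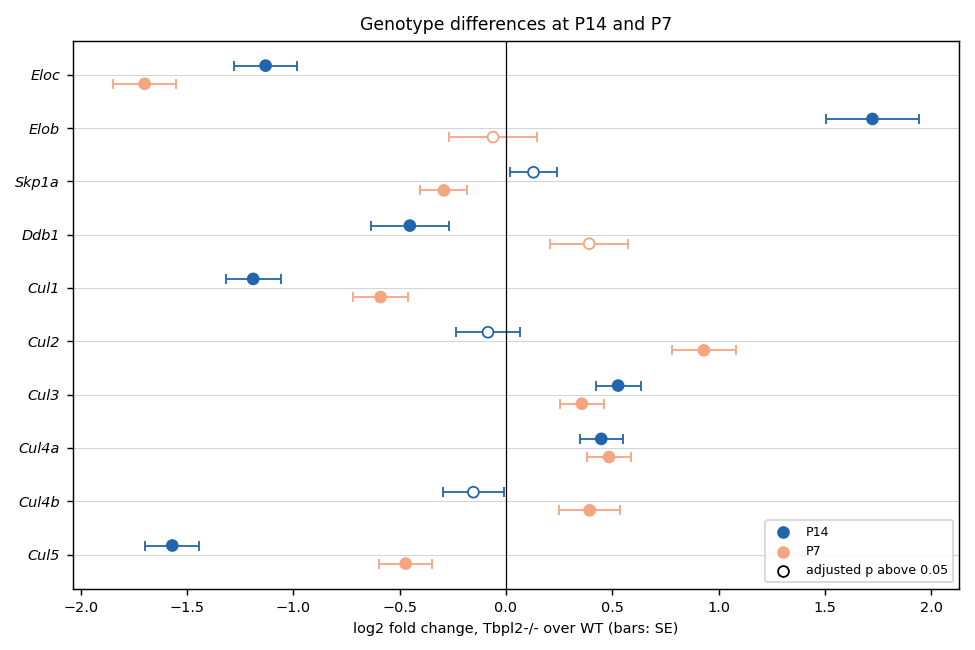
Log2 fold change of Tbpl2-/- over WT (x axis, bars are the SE of edgeR's fit) for each of the 10 genes at P14 (blue) and P7 (orange), with open points where the adjusted p was above 0.05. Elob reaches 1.72 at P14 and -0.06 at P7, Cul5 reaches -1.57 and -0.47, Eloc is negative at both ages, and Cul3 and Cul4a are positive at both.

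Across the 10 genes the P14 and P7 differences themselves differed for 6: the interaction was more negative at P14 for Ddb1, Cul1, Cul2 and Cul5 and more positive for Eloc and Elob. Over all tested genes the interaction was more negative for 14.3% and more positive for 13.6%. Leaving out 1 library at a time gave 2 to 5 genes in the first direction and 1 to 3 in the second. The calls of Elob, Cul2 and Cul5 were kept in all of those fits.

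The ratio of partner transcripts was taken within each library from normalised counts per kb of transcript. The ratio of Eloc to Elob was 5.21, 5.04 and 5.97 in P14 Tbpl2-/- oocytes, against 39.2, 44.9 and 34.1 in P14 WT oocytes, and 4.45, 4.95 and 3.99 in P7 Tbpl2-/- against 15.5, 13.9 and 12.7 in P7 WT oocytes. It was lower in each Tbpl2-/- library than in each WT library of its age. Averaged over the ages, the log2 ratio fell by 2.26 (two-sided exact permutation of genotype within each age, p = 0.005, the smallest this design allows, adjusted over 4 ratios p = 0.02). The size of such a ratio depends on the transcript lengths used, while its log2 difference between genotypes does not when each side is 1 gene.

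The ratio of Skp1a to Cul1 was 4.27, 4.29 and 3.63 in P14 Tbpl2-/- oocytes, against 1.68, 1.69 and 1.5 in P14 WT oocytes, and 4.66, 4 and 3.97 in P7 Tbpl2-/- against 2.77, 3.47 and 4.23 in P7 WT oocytes. Its genotypes were apart at P14 and overlapped at P7, with a mean log2 difference of 0.81 (exact permutation, adjusted p = 0.03). By age the difference was 1.32 at P14 and 0.29 at P7. Without replicate 1 of P7 Tbpl2-/- or of P7 WT the adjusted p was 0.06 and 0.0533, at log2 differences of 0.77 and 0.73.

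The ratio of Cul4a to Cul4b was 3.43, 2.92 and 2.79 in P14 Tbpl2-/- oocytes, against 1.95, 2.06 and 1.97 in P14 WT oocytes, and at P7 the genotypes overlapped (3.71, 3.04 and 3.01 in Tbpl2-/- and 2.91, 2.79 and 3.52 in WT oocytes). The mean log2 difference was 0.34 (exact permutation, adjusted p = 0.0333), and it did not pass without P14 WT replicate 1 or 3, P7 Tbpl2-/- replicate 1 or P7 WT replicate 1 (0.30 to 0.34, adjusted p 0.0533 to 0.0733). By age the difference was 0.61 at P14 and 0.08 at P7. The ratio of Ddb1 to the summed Cul4 transcripts was 1.47, 1.86 and 1.98 in P14 Tbpl2-/- oocytes, against 3.17, 2.43 and 3.2 in P14 WT oocytes. The P7 ratios of 1.31, 1.62 and 1.56 for Tbpl2-/- oocytes overlapped those of WT oocytes, 1.84, 1.33 and 1.52. The log2 difference of this ratio was -0.73 at P14 and -0.06 at P7. Its mean log2 difference of -0.39 sat on the threshold (exact permutation, adjusted p = 0.05), with an adjusted p of 0.07 from raw counts without length correction, and it no longer passed without any P14 library, without replicate 1 of P7 Tbpl2-/- or without replicate 1 or 3 of P7 WT (-0.33 to -0.46, adjusted p 0.06 to 0.1).

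**Figure D3:**
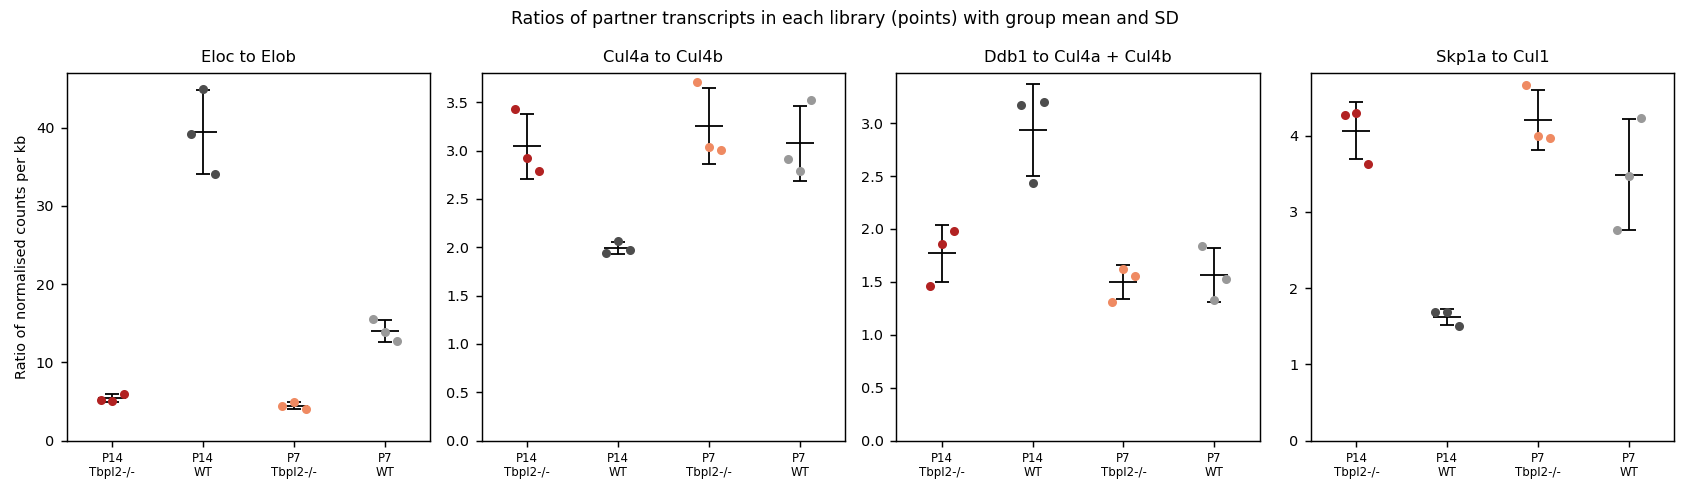
Ratio of normalised counts per kb (y axes, starting at 0) between partner transcripts in each of the 12 libraries (points), with the group mean and SD of 3 libraries (lines), for P14 Tbpl2-/-, P14 WT, P7 Tbpl2-/- and P7 WT oocytes. The P14 WT libraries stand apart from the other 3 groups in all 4 panels, with Eloc to Elob ratios of 34.1 to 44.9.

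The change between the ages showed the same pattern from another side. In WT oocytes 4 of the 10 genes were lower and 5 higher at P14 than at P7, where 23.4% of all tested genes were lower and 26.8% higher. Elob fell to 299 ± 55.5 normalised counts in P14 WT oocytes, against 1394 ± 403 in P7 WT oocytes (mean ± SD, n = 3 each, log2 fold change -2.22, adjusted p = 4.68e-06). Eloc, Skp1a and Cul3 were lower by -0.73, -0.34 and -0.32 on the log2 scale. Ddb1 (0.99), Cul1 (0.73), Cul2 (0.55), Cul4b (0.52) and Cul5 (0.73) were higher, and only Cul4a did not pass (-0.08, adjusted p = 0.553), though it did with scaling by library size alone (-0.23, adjusted p = 0.0482). Without P7 WT replicate 1 the same 9 genes passed, with changes of -2.43 for Elob and 1.25 for Ddb1. That library was singled out for lying nearest to P14 WT, so larger changes without it were largely built in. The smaller falls were less secure: Skp1a was lost without P14 WT replicate 1 or 3 or P7 WT replicate 2 or 3 (-0.23 to -0.34, adjusted p 0.0514 to 0.0993), and Cul3 without P14 WT replicate 1 or 2 or P7 WT replicate 2 (-0.24 to -0.30, adjusted p 0.0619 to 0.105).

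In Tbpl2-/- oocytes 2 of the 10 genes were lower and 0 higher at P14 than at P7, where 15.3% of all tested genes were lower and 18.4% higher. Higher genes also numbered 0 at an unadjusted p under 0.05 and in DESeq2. Those lower were Cul2 (log2 fold change -0.46, SE 0.15, adjusted p = 0.0273) and Cul5 (log2 fold change -0.37, SE 0.12, adjusted p = 0.0328), both of which went up with age in WT. Neither call was firm: Cul2 did not pass without replicate 2 or 3 of either Tbpl2-/- group (-0.39 to -0.42, adjusted p 0.0854 to 0.115), and Cul5 did not pass without any P14 Tbpl2-/- replicate or P7 Tbpl2-/- replicate 2 or 3 (-0.31 to -0.37, adjusted p 0.0591 to 0.124). Elob averaged 976 ± 163 normalised counts in P14 and 1319.8 ± 202 in P7 Tbpl2-/- oocytes (SD, n = 3 each, log2 fold change -0.43, adjusted p = 0.126). Without P7 WT replicate 1, a library outside this contrast that shares its fit, the adjusted p was 0.0498 at -0.43. The test of the difference between these age changes is the same interaction as above, since both read the same 4 group means.

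**Figure D4:**
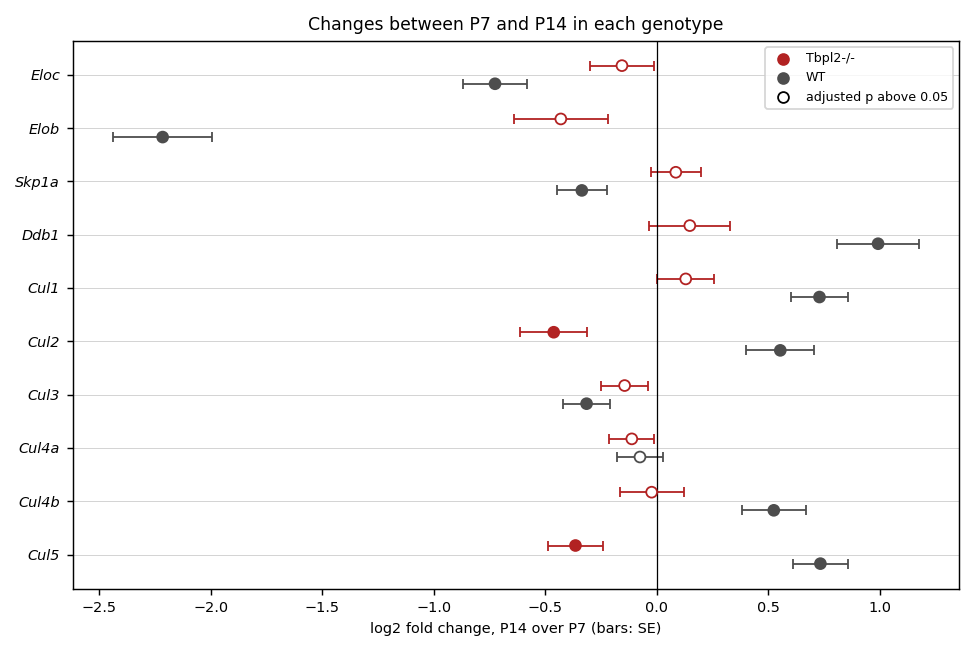
Log2 fold change of P14 over P7 (x axis, bars are the SE of edgeR's fit) for each of the 10 genes in Tbpl2-/- (red) and WT oocytes (grey), with open points where the adjusted p was above 0.05. In WT 9 genes pass, with Elob at -2.22 and Ddb1 at 0.99, and in Tbpl2-/- oocytes Cul2 (-0.46) and Cul5 (-0.37) pass.

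Levels can be compared between genes only per length. The deposited median transcript length includes short fragments (569 bases for Cul1), so the length of the principal transcript in GENCODE M21 was used here, as a choice made after seeing the data. In P14 Tbpl2-/- oocytes Skp1a averaged 62059 normalised counts per kb and Cul1 7380.4, followed by Ddb1 (3035), Eloc (2641), Cul4a (2400.1), Cul4b (2143), Elob (1817) and Cul3 (1661), each of which overlapped its neighbour in that order. Cul2 (888) and Cul5 (574) came last. In P14 WT oocytes Skp1a (57588) and Cul1 (17078) again came first, then Eloc (5863), Ddb1 (4212), Cul4b (2418), Cul4a (1784), Cul5 (1728), Cul3 (1169) and Cul2 (955). Elob was last there at 557, and only Cul4a and Cul5 overlapped as neighbours. Cul4b thus stood above Cul4a in P14 WT oocytes and in no other group by this length, and with the deposited median length Cul4a stood above Cul4b in all 4 groups.

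On GRCm38 the genes lie on separate chromosomes except Eloc (chr1:16641725-16657042) and Cul3 (chr1:80264923-80340480), both on the minus strand. Elob (chr17:23824738-23829136, minus strand) shares 0.29% of its exon bases with the antisense gene Srrm2, and 13.6% of the 50-base stretches of its transcripts also occur in transcripts of other genes, so its level is less certain than the others. The shared stretches came to at most 5.35% for the other 9 genes (Cul4a). Ddb1 (chr19:10605327-10629819, plus strand) overlaps antisense Tkfc over 5.12% of its exon bases, and Cul1 (chr6:47453398-47526139, plus strand) overlaps antisense A930035D04Rik over 4.75%. Cul5 (chr9:53614582-53670014, minus strand) overlaps antisense Gm16124 over 1.35%, and whether the counting used strand is not given in the sources used here.

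RefSeq promoter windows on GRCm38.p6, from 250 bases before to 50 after an annotated start, were matched for 8 of the 10 genes (10 windows, 3 of them of Cul1). Eloc and Cul2 had none. The annotated start need not be the one used in oocytes. Shown, 5′ to 3′ from 100 bases before the start, are those genes that differed by more than 2-fold at P14 (Elob, Cul5 and 2 of the windows of Cul1) and Skp1a, which did not pass at P14. Capitals mark matches, on either strand, to the TATA-box letters TATAAA or to TATATA, to the GC box GGGCGG or to the CCAAT box, and neighbouring GC boxes can overlap.
Elob (chr17:23829060-23829209, minus strand): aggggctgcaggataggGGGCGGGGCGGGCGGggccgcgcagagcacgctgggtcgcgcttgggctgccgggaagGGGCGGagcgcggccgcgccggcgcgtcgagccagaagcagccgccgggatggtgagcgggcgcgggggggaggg
Cul5 (chr9:53667458-53667607, minus strand): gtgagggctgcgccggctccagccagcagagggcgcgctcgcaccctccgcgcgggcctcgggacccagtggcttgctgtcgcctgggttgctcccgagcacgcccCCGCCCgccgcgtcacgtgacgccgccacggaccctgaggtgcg
Cul1, first window (chr6:47453632-47453781, plus strand): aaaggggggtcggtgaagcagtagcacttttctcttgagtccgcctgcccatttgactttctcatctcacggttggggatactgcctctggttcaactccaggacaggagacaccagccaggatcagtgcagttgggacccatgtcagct
Cul1, second window (chr6:47454219-47454368, plus strand): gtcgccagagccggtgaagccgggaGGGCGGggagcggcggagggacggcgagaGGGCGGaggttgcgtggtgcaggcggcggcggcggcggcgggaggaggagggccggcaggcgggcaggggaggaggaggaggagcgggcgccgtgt
Skp1a (chr11:52231895-52232044, plus strand): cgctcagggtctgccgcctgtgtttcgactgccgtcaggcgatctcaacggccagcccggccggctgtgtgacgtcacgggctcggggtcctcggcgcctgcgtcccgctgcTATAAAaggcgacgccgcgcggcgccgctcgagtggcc

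In whole windows, GGGCGG occurred in 7 of the 10 windows, those of 6 of the 8 genes, beside 35.7% of all 32851 windows in the table. The 10 windows held 52% to 79.7% G and C, beside a median of 52.7% over all windows, and this motif is made of G and C alone. Elob, the most increased of the 8 genes at P14, held 4 matches, 83, 78, 74 and 25 bases before the start. Cul5, the most reduced of the 8, held 1, on the opposite strand within the transcribed part. TATAAA occurred in the windows of Skp1a, where it starts at base 13 of the transcribed part, and Cul5, where it lies 249 bases before the start on the opposite strand, beside 13.6% of all windows. TATATA occurred once, 190 bases before the start of Elob (5.67% of all windows), and CCAAT once, for Cul4b (37.4% of all windows). None of the TATAAA or TATATA matches lay 20 to 40 bases before an annotated start, where 1.99% and 0.95% of all windows held one on the plus strand. These are matches of letters in the annotated windows and were not tested against the expression changes.

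Among the 10615 genes compared, those whose log2 CPM (counts scaled to library size) varied most like each member over the 12 libraries differed from member to member. For Elob they were Rpl23 (Pearson r 0.996), Rpl7 (0.990) and Ndufa7 (0.990), which encode ribosomal proteins and a respiratory complex I subunit. For Eloc they were Pfdn4 (0.993), Zcchc10 (0.993) and Med11 (0.992), for Cul1 Wee2 (0.997), Rfx5 (0.992) and Epb41l5 (0.992), and for Cul5 Rb1 (0.992), Ap5m1 (0.990) and Mdm4 (0.990). For Ddb1 they were Zdhhc5 (0.987), Map4 (0.986) and Gtf3c1 (0.979), and for Cul2 Tdrd1 (0.991), Ogdh (0.990) and Usp8 (0.982). Cul3 was most like Bclaf3 (0.981), Cul4a like Grik3 (0.981) and Cul4b like Parpbp (0.981), while Skp1a reached only 0.897 (Larp7). These correlations describe 12 libraries in 4 groups, which share their scaling and are not independent. Between the elongins themselves r was -0.08, and between Elob and Cul1 it was -0.86. Among pairs of members, r was highest for Cul1 and Cul5 (0.95) and lowest for Cul1 and Cul3 (-0.87).

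The enzymes that charge and release cullins were split as well under the scaling used here. The counts of this and the following lists moved with the scaling, and those from library size alone are given beside them. Of 16 genes of the NEDD8 pathway and the RING subunits, 6 were lower, 5 higher and 5 did not pass at P14, with a median log2 fold change of 0.19. Uba3, the catalytic subunit of the NEDD8-activating enzyme, held 2546, 2415 and 2406 normalised counts in P14 Tbpl2-/- oocytes, against 5072, 5436 and 4951 in P14 WT oocytes (log2 fold change -1.05, adjusted p = 2.79e-07). Dcun1d1 (-0.61) and Dcun1d4 (-0.49), which help NEDD8 onto cullins, were also lower. Their relatives Dcun1d2 (1.05) and Dcun1d3 (0.75) were higher. Rnf7, which encodes RBX2, the RING partner of CUL5, held 1614, 1606 and 1532 normalised counts in P14 Tbpl2-/- oocytes, against 569, 553 and 590.3 in P14 WT oocytes (log2 fold change 1.49, adjusted p = 1.68e-07). It was thus higher in Tbpl2-/- than in WT oocytes where Cul5 was lower. Rnf7 was also higher at P7, by less (log2 fold change 0.50, adjusted p = 0.0035 in edgeR's test). At P7 the same list had 4 lower and 3 higher. Library size alone turned the list to 1 lower and 9 higher at P14, while at P7 it gave 1 lower and 7 higher.

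Of the 10 COP9 signalosome subunits, 2 were lower and 4 higher at P14, or 2 lower and 7 higher with scaling by library size alone. Cops2 averaged 4454 ± 202 normalised counts in P14 Tbpl2-/- and 8987 ± 853 in P14 WT oocytes (SD, n = 3 each, log2 fold change -0.99, adjusted p = 2.05e-06), and Cops4 was lower by a log2 fold change of -0.85. Cops7a (0.59), Cops9 (0.58) and Cops6 (0.49) were higher. The subunit Cops9 was lower at P7 (-0.52), and its genotype differences at the ages differed (interaction, adjusted p = 0.01). The count of higher subunits at P14 was 2 without P14 Tbpl2-/- replicate 1 or without P14 WT replicate 1. At P7, 3 subunits were lower and 2 higher, and 1 was lower without P7 Tbpl2-/- replicate 3 or P7 WT replicate 2 or with the replicate block. Library size alone gave 1 lower and 6 higher at P7.

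Among 12 further cullins, E2 enzymes and RBR ligases that act on neddylated cullins, 6 were lower and 2 higher at P14, and 5 were lower and 4 higher at P7. With scaling by library size alone the balance at P14 turned, to 3 lower and 5 higher, and at P7 3 were lower and 4 higher. The atypical cullin Cul7 held 47.9, 45.8 and 41.5 normalised counts in P14 Tbpl2-/- oocytes, against 217, 119 and 207 in P14 WT oocytes (log2 fold change -1.99, adjusted p = 5.67e-05). Arih1 and Arih2 encode RBR ligases that work beside neddylated cullins, ARIH2 mainly with CUL5. Arih1 was lower (-1.26, adjusted p = 0.000616) and Arih2 higher (0.88, adjusted p = 0.000362). Ube2l3, which encodes their E2 enzyme, held 2067, 1919 and 1858 normalised counts in P14 Tbpl2-/- oocytes, against 614, 730.2 and 666 in P14 WT oocytes (log2 fold change 1.56). The E2 gene Ube2d2a was lower (-0.68). The count of higher genes was 4 without P7 Tbpl2-/- replicate 1 or without the filter on low counts.

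The receptors that plug into each adaptor moved in both directions. Of 42 tested BC-box receptors of the elongin ligases, 9 were lower and 16 higher at P14, and 11 were lower and 18 higher at P7. Library size alone gave 6 lower and 25 higher at P14, while at P7 it gave 7 lower and 24 higher. Wsb1, an SOCS-box receptor, held 618, 664 and 579.8 normalised counts in P14 Tbpl2-/- oocytes, against 1632, 1922 and 1967 in P14 WT oocytes (log2 fold change -1.55, adjusted p = 2.14e-07). The ankyrin-repeat receptor Asb13 (-2.45) and Lrr1 (-1.38), a CUL2 receptor that in worm and frog removes the replicative helicase from chromatin, were also lower. Asb6 (1.65), Rab40c (1.57) and Spsb3 (1.45) were higher. The Asb6 libraries held 3697, 3149.7 and 3209 normalised counts in P14 Tbpl2-/- and 1138, 1076 and 1045 in P14 WT oocytes, with no overlap.

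Of 63 tested F-box receptors of the SCF ligases, 27 were lower and 18 higher at P14, and 21 were lower and 26 higher at P7. Under library size alone the majority at P14 turned, to 20 lower and 28 higher, and at P7 16 were lower and 32 higher. Fbxo30 held 3649, 3163 and 3663 normalised counts in P14 Tbpl2-/- oocytes, against 15191, 19715 and 14409 in P14 WT oocytes (log2 fold change -2.21, adjusted p = 6.02e-08). Fbxo47 (-1.67) and Fbxw4 (-1.44) were lower, and Fbxo17 (1.80), Fbxw2 (1.05) and Fbxl15 (1.04) were higher. A separate list held 13 Fbxw genes of an oocyte-expressed cluster, and all 13 were lower at both ages, also with scaling by library size alone, with medians of -2.92 at P14 and -2.91 at P7. Among them the largest genotype differences at P14 were those of Fbxw18 (-4.12), Fbxw20 (-3.83) and Fbxw21 (-3.23). How alike these genes are in sequence was not measured here. Only uniquely aligned reads were counted, so reads matching more than 1 of them would be left out, and their separate values are uncertain.

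Of 59 tested BTB receptors of CUL3, 18 were lower and 19 higher at P14, and 17 were lower and 29 higher at P7. Library size alone moved these counts to 15 lower and 31 higher at P14, while at P7 they were 13 and 33. Kbtbd7 (-2.66), its close copy Kbtbd6 (-2.11) and Kbtbd8 (-1.97) were lower at P14. Kbtbd7 held 3739, 2799 and 4214 normalised counts in P14 Tbpl2-/- oocytes, against 20854, 23831 and 23997 in P14 WT oocytes. Kctd21 (2.98) and Kctd2 (2.15) were higher, and so was Kbtbd11 (3.72), whose Tbpl2-/- libraries ranged from 109 to 462 against 21.8 to 24.7 in WT.

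Of 26 tested DDB1-CUL4 receptors, 12 were lower and 3 higher at P14, and 6 were lower and 8 higher at P7. With scaling by library size alone the balance at P14 turned, to 3 lower and 9 higher, and at P7 4 were lower and 11 higher. Dcaf1 held 1962, 2481 and 3173 normalised counts in P14 Tbpl2-/- oocytes, against 8413, 9123 and 9308 in P14 WT oocytes (log2 fold change -1.80, adjusted p = 3.24e-06). At P7 it was lower by a log2 fold change of -0.74 (adjusted p = 0.00512), and the difference between the ages passed (adjusted p = 0.0135). Phip (-1.49) and Trpc4ap (-0.79) were lower at P14, and Dcaf15 (0.84) and the DNA damage sensor Ddb2 (0.33) were higher. The count of higher receptors was 5 without P14 Tbpl2-/- replicate 3. Beside the background of 27.8% lower and 29.9% higher, no list's count is read here as more than a description, since the lists were drawn up with earlier results of these data known.

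**Figure D5:**
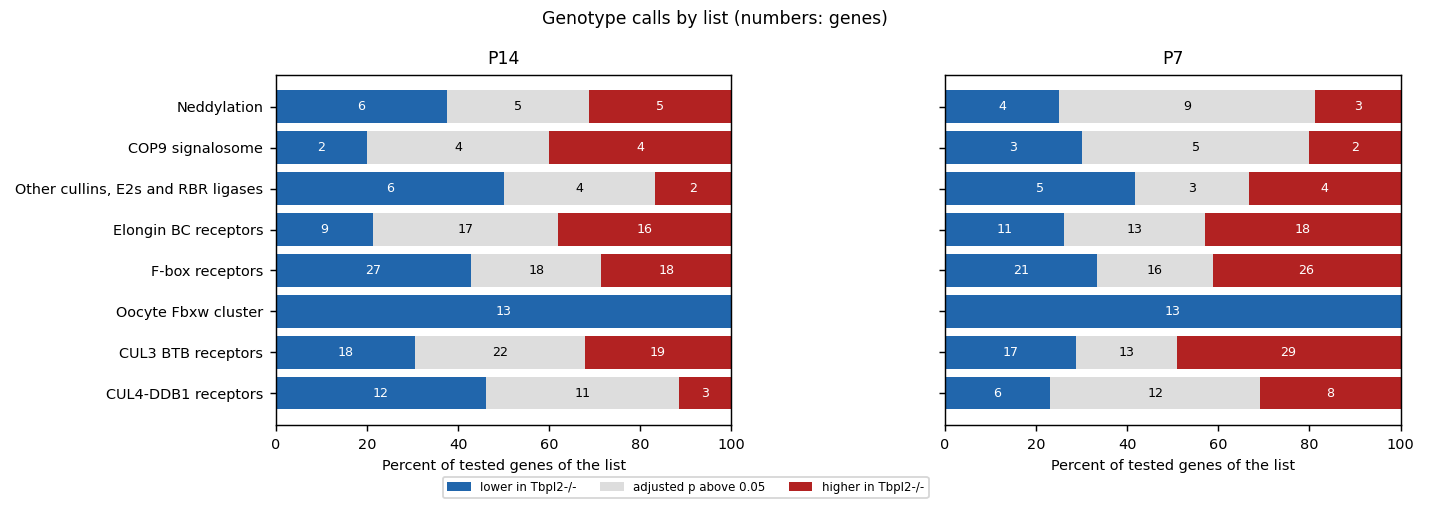
Percent of the tested genes of each list (x axis) that were lower in Tbpl2-/- (blue), did not pass an adjusted p of 0.05 (grey) or were higher (red) at P14 (left) and P7 (right), with the number of genes in each part. All 13 genes of the oocyte Fbxw cluster are lower at both ages, and 12 of 26 CUL4-DDB1 receptors are lower at P14 against 6 at P7, which library size alone turns to 3 at P14 against 4 at P7.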

How the data were processed

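RNA of 12 pools of hand-picked oocytes was amplified with a SMART-Seq v4 kit and sequenced by the authors. The submitters' processing notes and the methods name bcl2fastq 2.17.1.14, cutadapt, bowtie2, STAR 2.7.0f on mm10 (Ensembl annotation), HTSeq 0.9.1 (union mode, which leaves out reads lying in more than 1 gene), and R 3.5.3 with DESeq2 1.22.2. The deposited table holds whole-number counts per gene, and the authors' normalised counts, a signal in which DESeq2's size factor of each library has been divided out. Transcript lengths in bases were deposited too, as a median per gene (unit other). The authors' own comparison columns, log2 fold changes with standard errors, Wald scores and p-values, were not used.

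The counts were fitted with edgeR 4.0.16 (TMM, quasi-likelihood F test, robust, two-sided) under R 4.3.3 as 4 group means over 12 libraries, after edgeR's filter on low counts left 17715 of 36962 genes with a count. P-values were adjusted over those genes, a gene passed at 0.05, and SE is the log2 fold change over the square root of F. All 55450 gene identifiers matched GENCODE M21. Named genes are the 10 cullin and adaptor genes, for each list up to 3 lower and 3 higher at P14 that passed with a mean of at least 100 normalised counts, and the 3 genes most correlated with each member, with names of predicted genes, pseudogenes and clones left out. Marker genes of the cell types were named outside this rule. The members and lists were chosen with earlier results of these data known. Of 305 list symbols 5 were not matched, and 108 symbols of the table stand for more than 1 gene.

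Totals were 31467610 to 48030724 counts, and reads carry no molecular identifiers, so copies of a molecule count separately. Replicates within a group correlated at 0.981 to 0.992. P-values measure the spread between pools, which may be technical. Same-numbered libraries were not treated as paired. Among the libraries of the other genotype at the same age, 3 of 12 correlated best with their own number, and this was not counted between ages. Alternatives were median-of-ratios factors, library size alone, no filter, DESeq2 1.42.0, only the 6 libraries of a contrast, a replicate block, and leaving out each library. The principal-transcript length was added after seeing the data. Figures were drawn with matplotlib 3.10.9.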

Additional observations from a re-analysis of the deposited data

Results flagged for a closer look

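The genotype effect differed between P14 and P7, by edgeR's interaction term, for 6 of the 10 genes. Over all tested genes the interaction was more negative at P14 for 14.3% and more positive for 13.6%. On the log2 scale the Tbpl2-/- over WT difference at P14 minus that at P7 was 1.78 for Elob (adjusted p = 0.0012), -1.10 for Cul5 (adjusted p = 0.000817), -1.02 for Cul2 (adjusted p = 0.00397), -0.84 for Ddb1 (adjusted p = 0.0252), -0.60 for Cul1 (adjusted p = 0.0234) and 0.57 for Eloc (adjusted p = 0.0494). The direction held without P7 WT replicate 1, the library nearest to P14 WT, at 2.00 for Elob, -1.23 for Cul5, -1.21 for Cul2, -1.10 for Ddb1, -0.75 for Cul1 and 0.73 for Eloc. Each of these was larger than with that library. That library was singled out for lying nearest to P14 WT, and the interaction contains the gap between P7 WT and P14 WT. Larger values without it were therefore largely built in and do not test the interaction. The calls of Eloc, Cul1 and Ddb1 were lost when certain other single libraries were left out, as given above. Eloc also did not pass with median-of-ratios factors (adjusted p = 0.0502) or in DESeq2's Wald test (adjusted p = 0.0516). Granulosa markers also differed between the genotypes at P7 (9 of 13 tested lower, 0 higher in edgeR) more than at P14 (1 lower, 2 higher), and their part in these differences was not tested. Groups of 3 libraries were not examined for single outlying values.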

How the results depend on the processing

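Over 890 refits of the 50 fold changes of the cullin and adaptor genes, 795 kept their direction and their side of the threshold, 63 lost and 15 gained a call, and 17 turned sign, 0 of which had passed. Library size alone gave 5 genes higher at P14 and 2 lower at P7, and turned Cul2 (0.33) and Cul4b (0.26) at P14, Elob at P7 (0.21) and the interaction of Cul4a (0.10). It ended the P7 call of Cul5 (-0.19). It moved the median of all tested genes to 0.18 in the interaction and -0.13 between ages in WT (5168 lower and 3769 higher, against 4140 and 4749). Median-of-ratios factors and DESeq2 each gave 1 gene with a more positive interaction, and without the filter on low counts 1 gene was lower with age in Tbpl2-/-. The ratio of Ddb1 to the summed Cul4 transcripts was -0.32 from raw counts and -0.31 with principal transcripts (adjusted p = 0.07 for both).

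With 1 library left out, counts ran from 2 to 5 (more negative interaction), 1 to 3 (more positive interaction), 0 to 3 (lower with age in Tbpl2-/-) and 2 to 4 (lower with age in WT), and log2 ratio differences from 0.30 to 0.40 (Cul4a to Cul4b), -0.46 to -0.33 (Ddb1 to Cul4) and 0.73 to 0.88 (Skp1a to Cul1). Signs turned for Cul2 at P14 (-0.15 to 0.014), Elob at P7 (-0.28 to 0.094), Cul4a in the interaction (-0.13 to 0.040) and with age in WT (-0.15 to 0.019), and Cul4b with age in Tbpl2-/- (-0.13 to 0.037). The replicate block gave 1 gene with a more positive interaction, and it ended the calls of Ddb1 at P14 and Eloc in the interaction. Both calls were also lost in fits that left out 1 library. In their deviations from the group mean, same-numbered libraries correlated at -0.11 to 0.22 within an age and at -0.04 to 0.26 between ages. Among the libraries of the other genotype at the same age, 3 of 12 correlated best with their own number. Whether a shared number marks a real pair is not given.

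With 3 libraries a group, and 400 arrangements for a ratio, small differences such as those of Skp1a, Ddb1 and Cul4b cannot be settled. List counts stayed within 1.5 times in 552 of 576 refits, and 16 of the other 24 were with library size alone, which turned the balance of the DDB1-CUL4 and F-box receptors, the NEDD8 pathway and the further cullins at P14 towards higher. Over all tested genes that scaling also moved the P14 counts towards higher (2962 lower and 8262 higher, against 4932 and 5292).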

Other observations

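Elob, which was higher at P14 in Tbpl2-/- oocytes and fell with age in WT, varied most like 2 ribosomal protein genes, and the ribosomal protein genes as a group were looked at for that reason, after the values had been seen. Of 80 tested, 54 were higher and 5 lower in Tbpl2-/- than in WT oocytes at P14 (median log2 fold change 0.74, range -1.62 to 2.69), where 29.9% of all tested genes were higher. At P7, 15 were higher and 21 lower (median -0.14), where 30.5% of all tested genes were higher and 28.9% lower. Between the ages in WT, 75 of the 80 were lower at P14 (median -1.37), where 23.4% of all tested genes were lower. In Tbpl2-/- oocytes 18 were lower and 1 higher at P14 (median -0.36), where 15.3% of all tested genes were lower and 18.4% higher. Since the group was picked from these same libraries, its likeness to Elob is partly built in. Many ribosomal protein genes have pseudogene copies, and reads that did not align uniquely were left out of the counts, so single values are uncertain.

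P7 WT replicate 1 was the P7 WT library nearest to the P14 WT mean for 6398 of the 8889 genes that differed between the ages in WT, against 1007 for replicate 2 and 1484 for replicate 3. Among the cullin and adaptor genes it was nearest for 8 of 10, with Elob at 933 normalised counts and Ddb1 at 12490.4. The labels give this pool 400 oocytes, as they do replicate 3.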
